A study of Mus musculus with 68 samples.

Results

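The Wnt signalling genes described here were the secreted Wnt ligands, the Frizzled (Fzd) receptors, the secreted antagonists of the Sfrp and Dkk families, the co-receptors Lrp5, Lrp6, Ror1, Ror2 and Ryk, the scaffold proteins Axin1 and Axin2, and the nuclear factors Lef1, Tcf7, Tcf7l1 and Tcf7l2. They were taken by gene symbol, a rule that uses no measured value, from the annotation of the array, an Affymetrix array of the whole mouse genome. This gave 48 symbols out of 18194 in all, and 98 probe sets out of 45101. No probe set of its own was found for Tcf7, which was not analysed here. Fzd10os was matched by its symbol but is an opposite-strand transcript and not a receptor, and neither of its 2 probe sets reached the level used below.

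Each array held amplified cDNA of 1 cell from the cerebral cortex of CD1 mice. There were 29 cells from the dorso-lateral wall at embryonic day (E) 11 and 28 cells from pieces of the ventricular and subventricular zones at E16, both picked at random and then kept, by the study's qPCR of marker genes, as progenitor populations. The 3 E12 apical progenitors (APs, the progenitors that line the ventricle) were chosen by qPCR for Ki67, Ttyh1, Sox2 and Pax6 and for lack of Tbr2. The 3 neurosphere APs came from E11 cortical cells grown for 3 days with FGF2, EGF, N2 and B27. The 4 NICD/p18 APs were EGFP-positive cells picked at E14, 3 days after electroporation at E11 of pCAG-NICD (the Notch1 intracellular domain) together with pEF-p18 (the Cdk inhibitor p18, Cdkn2c), both under promoters active in many cell types. No array of E14 cells without these plasmids was analysed here. Which embryo, litter or culture a cell came from is not stated, so the cells of a group were treated as parts of 1 sample. The spread given is that between cells, and groups were compared without a test. The labels also give no cell type for the E11 and E16 cells, which were therefore each taken whole. Cell E11-31i, which the study dropped for low quality, was left out.

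Wnt proteins are secreted, lipid-modified ligands that bind Frizzled receptors. With Lrp5 or Lrp6 as co-receptor they lead to stabilised beta-catenin, which enters the nucleus and acts with the Tcf and Lef factors, and with Ror1, Ror2 or Ryk they can act without beta-catenin. Sfrp proteins resemble the ligand-binding part of Frizzled and bind Wnts outside the cell, while Dkk1, Dkk2 and Dkk4 bind Lrp5 and Lrp6. In the embryonic cortex, Wnts made at the dorsal midline and within the ventricular zone are known to promote progenitor division early and neuronal differentiation later.

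The 250 bases upstream of the annotated transcription start are shown as the stretch in which regulators of a gene are known to bind. They are given for the 4 members, among those whose share of cells differed by at least 25 percentage points between E11 and E16, that the table used holds. The table comes from RefSeq (GRCm38.p6) and gave a promoter for 32 of the 48 members, with each stretch written 5′ to 3′ in the direction of its gene. Capitals mark CTTTG or its reverse complement CAAAG, the core of the Tcf and Lef binding motif.
Ror2 (chr13:53286125-53286374, minus strand): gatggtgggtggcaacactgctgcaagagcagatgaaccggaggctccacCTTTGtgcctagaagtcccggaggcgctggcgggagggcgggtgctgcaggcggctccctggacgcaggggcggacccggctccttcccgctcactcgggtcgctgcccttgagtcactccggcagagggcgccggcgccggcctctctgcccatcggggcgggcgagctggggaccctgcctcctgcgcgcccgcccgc
Fzd1 (chr5:4758217-4758466, minus strand): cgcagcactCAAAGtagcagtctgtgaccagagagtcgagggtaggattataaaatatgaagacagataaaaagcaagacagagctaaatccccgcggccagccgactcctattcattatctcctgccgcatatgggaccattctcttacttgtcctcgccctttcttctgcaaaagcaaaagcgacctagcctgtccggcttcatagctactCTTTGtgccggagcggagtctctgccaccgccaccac
Ryk (chr9:102834670-102834919, plus strand): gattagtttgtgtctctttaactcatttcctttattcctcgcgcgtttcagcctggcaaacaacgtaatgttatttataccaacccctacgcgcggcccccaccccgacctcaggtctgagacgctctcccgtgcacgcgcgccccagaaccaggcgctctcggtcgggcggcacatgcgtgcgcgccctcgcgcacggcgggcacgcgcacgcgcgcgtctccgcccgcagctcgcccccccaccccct
Wnt7a (chr6:91411354-91411603, minus strand): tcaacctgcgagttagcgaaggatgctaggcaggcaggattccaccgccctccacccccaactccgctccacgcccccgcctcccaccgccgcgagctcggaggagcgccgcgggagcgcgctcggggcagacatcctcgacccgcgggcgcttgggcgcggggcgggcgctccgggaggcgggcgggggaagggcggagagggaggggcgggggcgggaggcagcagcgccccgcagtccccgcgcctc
The core was found 2 times in the window of Fzd1, 1 time in that of Ror2 and not in those of Ryk and Wnt7a. It lay in 16 of the 32 members' windows (50%) and in 48.8% of the windows of all 27025 genes in the table, a like share. The longer form CTTTGAT, on either strand, was in 1 of the 32 windows and in 3.23% of all windows.

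A gene was called present in a cell where its signal reached 842 (9.72 on the log2 scale), the median signal over all arrays of phe, a bacterial RNA added to every cell at 20 copies. Signals below it are of low reliability, and a difference of log2 means between groups that lie mostly below it is not a fold change in copies. On the log2 scale the median of phe was 9.49 in E11 cells, 9.57 in E16 cells, 9.86 in E12 APs and 9.57 in neurosphere APs, but 11.62 in NICD/p18 APs. Single cells varied widely: phe ran from 4.83 to 11.93 in E11 cells and from 6.55 to 12.70 in E16 cells. It reached the level in 13 of 29 E11 cells and 13 of 28 E16 cells, although every cell was given 20 copies. A gene not called present in a cell was therefore not shown to be absent from it. The 10 arrays of the 3 small groups had been scaled to a 2% trimmed mean of 500.0, whereas those of the other 58 lay between 47.5 and 297.5, and scaling and group cannot be told apart there. At least 50% of a list of 12 AP markers were present in 23 of 29 E11 cells and 23 of 28 E16 cells, at least 50% of 8 intermediate progenitor (IP) markers in 4 and 10, and at least 50% of 8 neuron markers in 5 and 6. Of the 4 NICD/p18 APs, M5K and M6C also carried at least 50% of the neuron markers, against their label, with mean log2 signals of those markers of 10.88 and 12.17 beside 7.38 in M5A and 4.15 in M6H. Of the 3 E12 APs, 1 carried 4 of the 8 neuron markers (mean log2 signal 7.50, beside 4.75 and 4.98 in the others), and another, chosen for lack of Tbr2, had Tbr2 (Eomes) at 11.75. Markers of interneurons, vessels, mesenchyme, microglia and the cortical hem reached 50% of their list in no cell. 1 E11 cell did so for blood and 1 for Cajal-Retzius neurons.

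Detection differed between the roles. Of the 98 probe sets, 38 (38.8%) were present in at least 1 cell, against 45% of all probe sets on the array, and they stood for 22 of the 48 genes. Present were 7 of 10 Frizzled genes (all but Fzd5, Fzd6 and Fzd10), 3 of 5 co-receptor genes (Lrp6, Ror2 and Ryk, not Lrp5 or Ror1), 4 of 8 antagonists (Sfrp1, Sfrp2, Sfrp5 and Dkk3), both Axins, and Lef1, Tcf7l1 and Tcf7l2. Of the 19 ligand genes, 3 were present, Wnt5b, Wnt7a and Wnt7b. Among the 16 others, Wnt3a, Wnt2b, Wnt5a and Wnt8b, ligands of the cortical hem, had highest signals of 8.81, 4.95, 6.79 and 9.11 on the log2 scale, all below the level. Whether a probe set that is nowhere present reports an absent transcript or does not detect it was not tested.

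**Figure D1:**
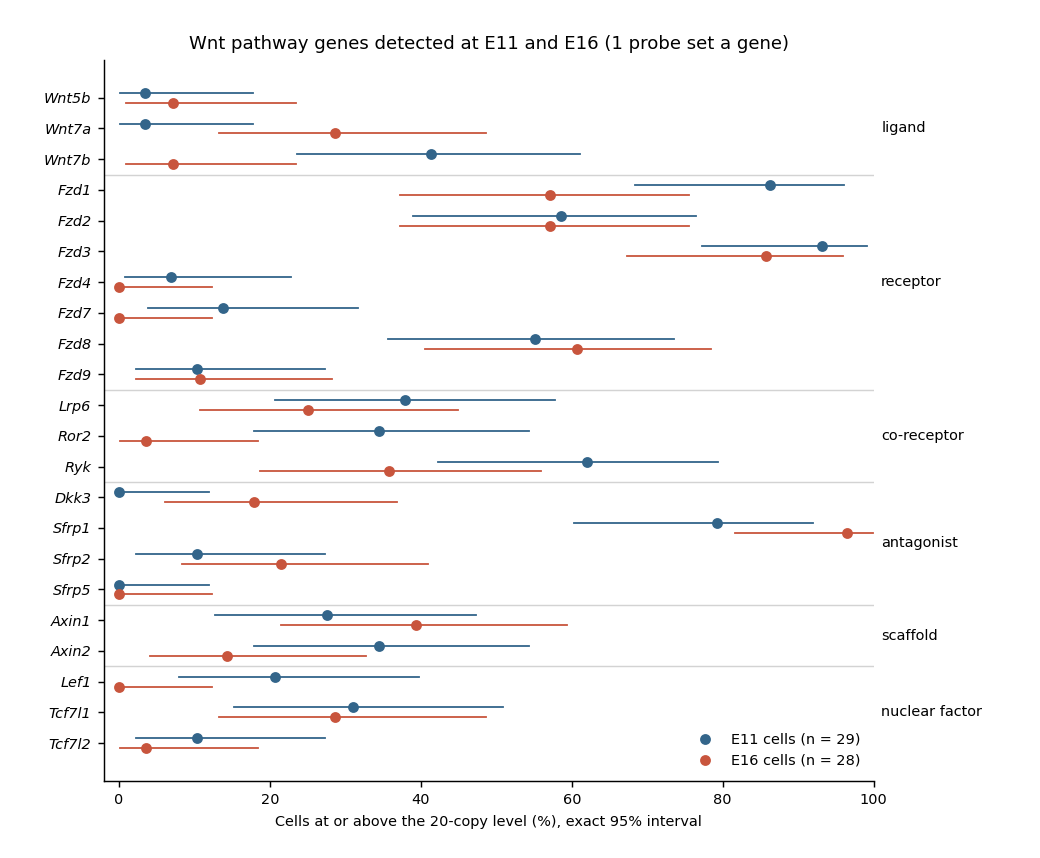
Share of cells (x axis, %) in which each of the 22 detected genes was at or above the 20-copy level at E11 (blue, 29 cells) and E16 (red, 28 cells), for 1 probe set per gene and ordered by role, with lines for the exact 95% interval. Fzd3 and Sfrp1 were present in most cells at both stages, while Wnt7b, Ror2 and Lef1 lay lower at E16 and Wnt7a and Dkk3 higher.

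The 2 Wnt7 ligands differed between the stages in opposite directions. Wnt7b, a ligand made by cortical progenitors and neurons, had lowest, median and highest log2 signals of 5.80, 8.77 and 12.61 in the E11 cells and 3.19, 6.98 and 10.93 in the E16 cells. It was present in 12 of 29 E11 cells (41.4%, exact 95% interval 23.5 to 61.1%) and 2 of 28 E16 cells (7.14%, 0.877 to 23.5%), intervals that, here as throughout, cover counting error only. The ranges overlapped, and the mean log2 signal was 8.93 ± 1.92 (SD, n = 29) at E11 and 6.94 ± 1.77 (SD, n = 28) at E16, a difference of -2.0.

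Wnt7a, a close paralogue known from the ventricular zone, ran the other way. Its lowest, median and highest log2 signals (probe set 1423367_at) were 0.14, 4.09 and 9.72 in E11 cells, against 0.66, 5.66 and 11.59 in E16 cells. It was present in 1 of 29 E11 cells (3.45%) and in 8 of 28 E16 cells (28.6%, 13.2 to 48.7%), with means of 4.12 ± 2.91 and 6.44 ± 3.28. That E11 cell lay just at the level, so the groups overlapped there and below it. A further Wnt7a probe set, 1447647_at, had the higher mean (6.79 at E11, 7.30 at E16) but reached the level in no cell. With each of the 3 other scalings of the arrays the difference in share fell to between 7.51 and 21.7 percentage points, from 25.1.

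The third ligand, Wnt5b, which acts mostly without beta-catenin, was present in 3 E11 cells and 2 E16 cells by any of its probe sets. A ligand of any kind was present in 14 of 29 E11 cells and 10 of 28 E16 cells. Wnt7a and Wnt7b were seen together in 1 cell at each stage, so that 11 of the 12 E11 cells with Wnt7b and 7 of the 8 E16 cells with Wnt7a had that ligand without its paralogue. Cell names begin with a number whose meaning the labels do not give: the 8 E16 cells with Wnt7a carried 4 of the 10 numbers found at E16, 5 of them the number 81, which 11 cells shared, and the 12 E11 cells with Wnt7b carried 6 of 10.

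**Figure D2:**
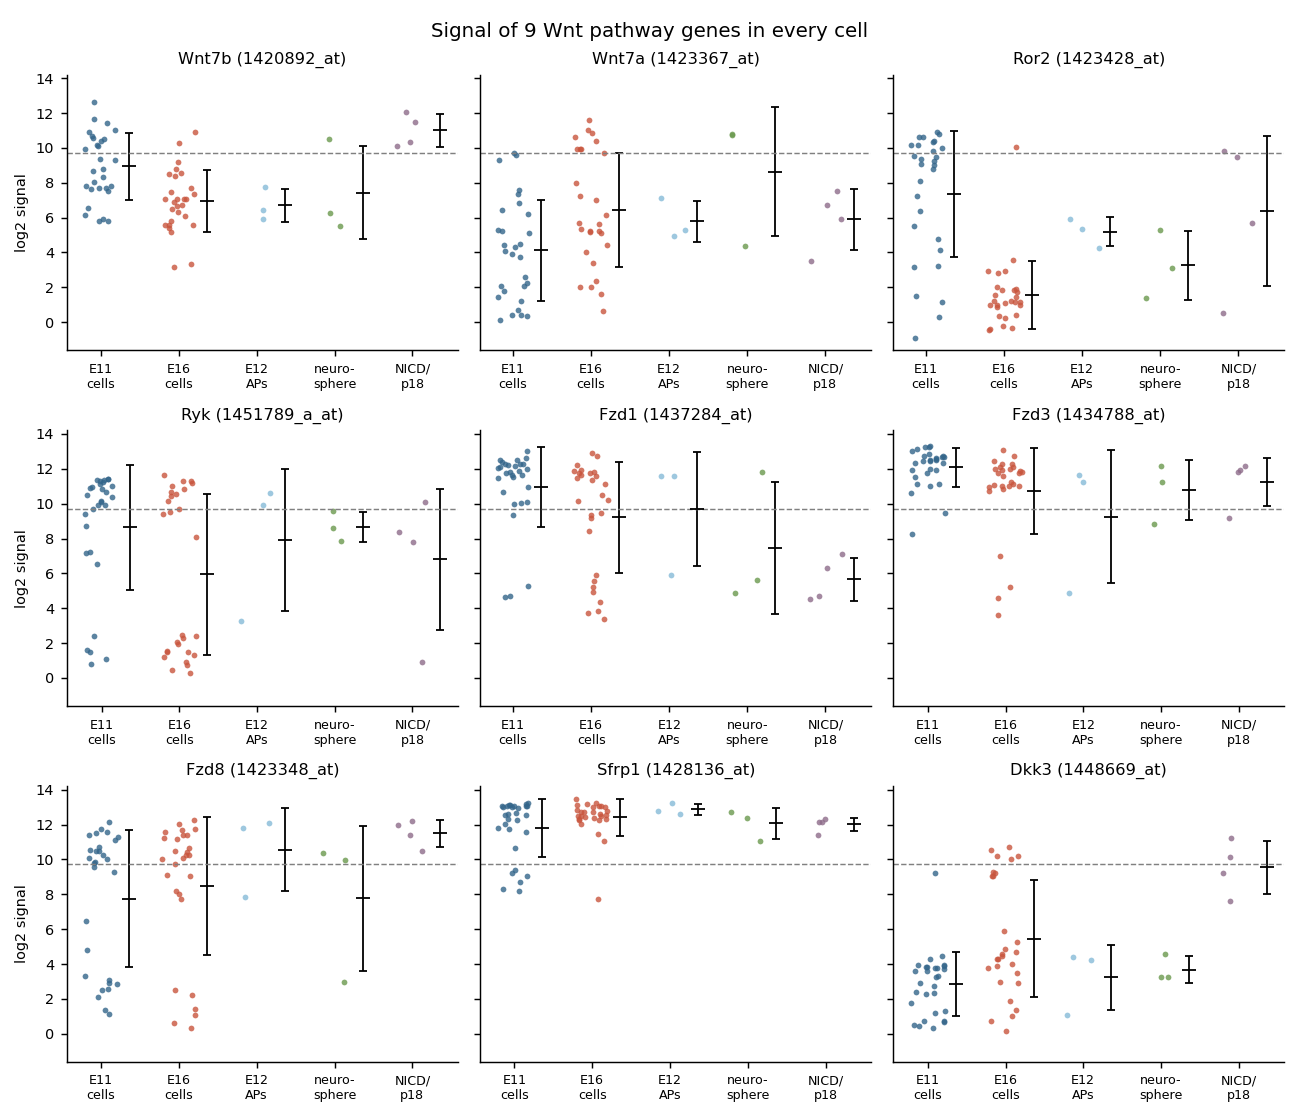
Log2 signal (y axis) of 9 members in every cell of the 5 groups, 1 point per cell, with the group mean ± SD as a bar to the right of the points and the 20-copy level (9.72) as a dashed line. Ror2 stood above the line in 10 of 29 E11 cells and 1 of 28 E16 cells, and all 4 NICD/p18 cells lay above it for Wnt7b and below it for Fzd1.

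Among the receptors, Fzd3 was present in the most cells at both stages and Fzd1 followed it at E11, and both had lower means at E16. Fzd3, a receptor known for axon guidance and planar polarity, had lowest, median and highest log2 signals at E11 of 8.25, 12.45 and 13.29, against 3.62, 11.66 and 13.06 at E16 (1434788_at). The level was reached in 27 E11 cells and 24 E16 cells. The means were 12.08 ± 1.15 and 10.75 ± 2.47, a difference of -1.33 that was -0.95 when signals were first raised to a floor of 211. Most cells of both stages shared one range, and 4 E16 cells without Fzd3 lay far below it.

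For Fzd1 these signals were 4.63, 11.83 and 13.01 in E11 cells against 3.38, 10.36 and 12.90 in E16 cells. It was present in 25 of 29 cells (86.2%, 68.3 to 96.1%) and 16 of 28 cells (57.1%, 37.2 to 75.5%), and its mean went from 10.96 ± 2.28 to 9.23 ± 3.18. The highest cells of both stages were alike, and the stages differed in how many cells lay below the level. Fzd1 was the member that met both rules of difference defined below.

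Fzd2 and Fzd8 were present in more than 50% of cells at both stages. Fzd2, by its best probe set 1418534_at, was present in 17 E11 cells and 16 E16 cells, and its means were 9.10 ± 2.92 and 9.12 ± 2.71. Fzd8, a receptor that pairs with Lrp6, was present in 16 and 17 cells, and its means were 7.76 ± 3.94 and 8.46 ± 3.96. For neither did the stages differ by as much as the spread between cells. The same held for the means of Fzd1 and Wnt7a, and the difference of Fzd3 exceeded the spread at E11 but not that at E16. The remaining receptors were sparse: Fzd7 was present in 4 E11 cells and 0 of 28 E16 cells, which allows a share of up to 10.7% (the limit of 3 cells in 28), Fzd4 in 2 and 0, and Fzd9 in 3 and 3.

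The co-receptors that act without beta-catenin were found in fewer cells at E16. Ror2, a receptor tyrosine kinase for Wnt5a, had lowest, median and highest log2 signals at E11 of -0.88, 9.07 and 10.90, against -0.46, 1.17 and 10.07 at E16 (1423428_at). It was present in 10 of 29 E11 cells (34.5%, 17.9 to 54.3%) and in 1 of 28 E16 cells (3.57%, 0.0904 to 18.3%). That cell, E16-76F, stood alone, the next E16 cell being at 3.55, whereas the median E11 cell lay close below the level. The mean was 7.34 ± 3.61 at E11 and 1.57 ± 1.96 at E16, a difference of -5.77 that shrank to -1.21 when signals were raised to the floor of 211. The second Ror2 probe set, 1457128_at, was present in 4 and 0 cells.

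Ryk, a Wnt-binding receptor with an inactive kinase domain, was given by 2 probe sets with like results. For 1451789_a_at the lowest, median and highest log2 signals were 0.81, 10.15 and 11.44 in E11 cells, against 0.30, 5.28 and 11.67 in E16 cells, and it was present in 18 of 29 cells (62.1%, 42.3 to 79.3%) and 10 of 28 cells (35.7%, 18.6 to 55.9%). For 1426388_s_at the counts were 16 and 6. The signals fell into a high and a low set of cells at both stages, and the low set was larger at E16. The third Ryk probe set, 1447400_at, was present in 1 cell at each stage.

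Lrp6, the co-receptor of the beta-catenin branch, was present in 11 of 29 E11 cells and 7 of 28 E16 cells, and its means were 7.59 ± 3.34 and 6.47 ± 3.52. Counted over the co-receptor genes, a cell had a median of 2 at E11 and 1 at E16, and 3 of 29 and 12 of 28 cells had none. Counted by any of their probe sets, Ror2 was present in 13 and Ryk in 22 E11 cells, with 10 cells that had both, 3 Ror2 alone and 12 Ryk alone. By the same count the 1 E16 cell with Ror2 also had Ryk. The number of Frizzled genes in a cell had a median of 3 at both stages, with 1 to 6 in an E11 cell and 0 to 5 in an E16 cell.

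**Figure D3:**
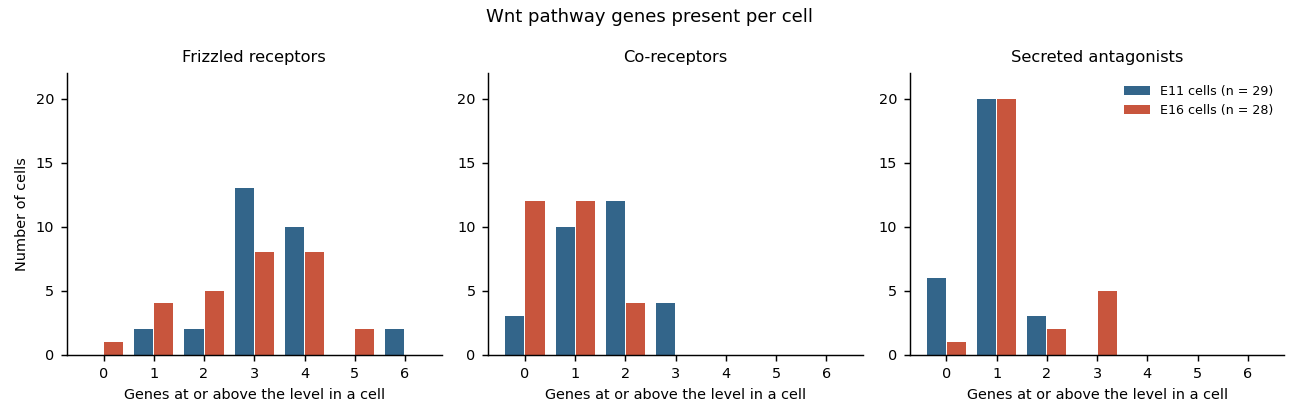
Number of cells (y axis) that had a given number of genes present (x axis) among the Frizzled receptors, the co-receptors and the secreted antagonists, at E11 (blue, 29 cells) and E16 (red, 28 cells). The Frizzled counts centre on 3 at both stages, 12 E16 cells and 3 E11 cells had no co-receptor, and 1 E16 cell and 6 E11 cells had no antagonist.

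The antagonists were the role in which more E16 cells than E11 cells had at least 1 gene, 27 of 28 (96.4%, 81.7 to 99.9%) against 23 of 29 (79.3%, 60.3 to 92.0%). Without the cells that carried at least 50% of the IP or neuron markers, these were 17 of 17 and 21 of 22. Sfrp1, a progenitor-expressed Wnt binder, was the most widely present of them. By 1428136_at its lowest, median and highest log2 signals were 8.21, 12.53 and 13.25 in E11 cells, against 7.76, 12.56 and 13.45 in E16 cells, and the cells above the level formed one narrow band at both stages, with 6 E11 cells and 1 E16 cell below it. Of the 5 Sfrp1 probe sets, 4 had a mean difference between 0.38 and 0.72 and 1 (1416594_at) of -1.08. The probe set 1438620_x_at went from 6 to 13 cells, but this direction turned with the signals as deposited (-2.71 percentage points) and when scaled to lys, a bacterial RNA added at 1000 copies (-9.73 points), so no direction is given for its share.

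Dkk3, a divergent member of the Dkk family, had log2 signals at E11 of 0.34, 3.26 and 9.24, against 0.15, 4.53 and 10.73 at E16 (1448669_at). It was present in 0 of 29 E11 cells, which allows a share of up to 10.3% (3 cells in 29), and in 5 of 28 E16 cells, and in 1 more by its other probe set 1417312_at. Sfrp2, a Wnt binder, was present in 3 E11 cells and 6 E16 cells. In a look at pairs taken after these counts were seen, 5 E16 cells had Dkk3 and Sfrp2 together, 1 had Dkk3 alone and 1 Sfrp2 alone, and none of the 6 cells with Dkk3 had Wnt7a. The rank correlation of Dkk3 and Sfrp2 was 0.42 over the 28 E16 cells and 0.14 over the 29 E11 cells, which share the amplification. In the NICD/p18 APs no cell had both, 2 had Dkk3 alone and 1 Sfrp2 alone. Sfrp5 was present in 1 cell, M6H of the NICD/p18 APs, at 11.13.

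The scaffold Axin2, whose transcription is a common readout of beta-catenin signalling, had log2 signals at E11 of 3.84, 7.07 and 11.41, against 1.53, 5.42 and 11.50 at E16. It was present in 10 of 29 cells and 4 of 28 cells, and its mean went from 7.51 ± 2.57 to 5.95 ± 2.65, less than 1 SD. Axin1, the constitutive scaffold, was present in 8 and 11 cells. Of the nuclear factors, Lef1, an activating partner of beta-catenin, was present in 6 E11 cells and 0 of 28 E16 cells, with means of 6.82 ± 2.71 and 4.25 ± 1.57. At E11, 2 cells had Axin2 and Lef1 together. Tcf7l1, which mostly represses its targets, was present in 9 and 8 cells by 1436207_at, with means of 8.30 ± 2.89 and 6.28 ± 3.56, and in 2 and 6 cells by 1450117_at. Tcf7l2 was present in 3 and 1.

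A difference was called by the mean rule where the mean log2 signals differed by at least 1 (a factor of 2) and the higher mean reached the level, and by the share rule where the share of cells with the gene differed by at least 25 percentage points. By the mean rule, 0 of the 38 detected member probe sets were higher at E16, against 1.17% of the 20256 probe sets examined, and 2 (Fzd1 and Fzd3) were lower, against 2.01%. By the share rule 2 were higher (Wnt7a and the Sfrp1 probe set named above), against 3.16%, and 5 were lower, standing for Fzd1, Ror2, Ryk and Wnt7b, or 13.2%, against 2.99%. Of the 38, 13 had a higher mean at E16 (34.2%, against 47% of all), and the median difference was -0.54 for the members and -0.06 for all probe sets. These are descriptions of 2 sets of cells with no test. With the level set at 1685, the share rule called 0 member probe sets higher and 1 lower, that of Fzd1.

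Within a stage some members went with markers of the AP state. Over the 29 E11 cells, the rank correlation with the mean signal of the AP markers was 0.70 for Tcf7l1, 0.66 for Sfrp1, 0.54 for Fzd8 and 0.51 for Ror2, and that with the neuron markers was -0.67 for Sfrp1 and -0.50 for Lrp6. With the IP markers it was -0.69 for Tcf7l1. Over the 28 E16 cells, Wnt7a had 0.56 with the AP markers and 0.59 with Fzd8, and Sfrp1 had -0.56 with the neuron markers. Between members of different genes the rank correlation had a median of 0.12 at E11 (129 pairs of probe sets) and 0.08 at E16 (96 pairs). The cells of a stage share amplification and array handling, and no weight was put on single weak values.

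Since IP and neuron markers were found in unequal numbers of cells at the 2 stages, the comparison was repeated without the 7 E11 and 11 E16 cells that carried at least 50% of either list, a choice made after seeing the data. Among the 22 and 17 cells left, Wnt7b was present in 9 and 0, Ror2 in 9 and 1, Ryk in 15 and 5, Fzd1 in 21 and 11, and Wnt7a in 1 and 7. Each of these 5 differences in share was larger than in all cells, while that of Sfrp1 (1428136_at) was smaller, with 21 and 17 cells. Lrp6 was present in 11 and 2 and Dkk3 in 0 and 5 of these cells. By the share rule, 5 probe sets were higher, among them those of Dkk3 and Sfrp2 and 1450117_at of Tcf7l1 (2 and 6 cells), and 6 lower, including Lrp6. The other Tcf7l1 probe set, 1436207_at, was present in 9 and 7 of these cells, with means of 9.49 ± 1.78 and 7.44 ± 3.56. Without the 5 E11 and 6 E16 arrays of trimmed mean under 100, among them E16-80K, in which no member was present, the share rule gave 0 higher and 5 lower. Neither repeat has the share of all probe sets called beside its counts. The counts therefore say nothing about the members against the rest of the array.

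The 3 E12 APs, set against the E11 cells, had no ligand present. Their log2 signals of Wnt7b were 7.76, 6.42 and 5.94, all in the lower part of the E11 range. Tcf7l1 was present in all 3, at 11.10, 11.86 and 12.13, against 9 of 29 E11 cells. By the mean rule 7 member probe sets were higher in E12 APs (Axin1, Fzd2, Fzd8, Sfrp1 and Tcf7l1), or 18.4%, against 6.95% of all, and 2 were lower (Fzd1 and Fzd3), against 0.982%. Single cells carried some of these: Fzd1 was 5.93, 11.58 and 11.57 and Fzd3 11.25, 4.86 and 11.64, and without the low cell the difference was no longer called. The cell with Fzd1 at 5.93 was the one with Tbr2, and the cell with Fzd3 at 4.86 the one with 4 of the neuron markers. The E12 APs had been chosen by qPCR as APs, and the E11 cells, also by qPCR, as progenitor populations and not as APs alone. Choice and stage can therefore not be told apart.

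In the neurosphere APs, Fzd1 lay below the level in 2 of 3 cells (11.82, 5.63 and 4.89). Wnt7a was 4.38, 10.73 and 10.81, present in 2 of 3 cells as against 1 of 29 E11 cells, although its mean did not reach the level. Wnt7b was present in 1 of them. By the mean rule 1 member was higher than in E11 cells (Axin1), against 6.4% of all probe sets, and 2 were lower (Fzd1 and Fzd3), against 1.58%. Axin1 was 10.78, 9.12 and 9.32, and without the first of these cells it was no longer called while Wnt7a was. Fzd3 was 12.18, 8.86 and 11.25, and without the second of these cells it was no longer called. Culture, choice as APs and array scaling all differ from those of the E11 cells and cannot be told apart here.

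The NICD/p18 APs were the group in which Wnt7b was present in every cell. Its log2 signals were 11.49 (M5A), 12.07 (M5K), 10.34 (M6C) and 10.10 (M6H), a mean of 2.07 above E11 cells and 4.29 above E12 APs, with no overlap with the latter. Fzd1 was 6.32, 7.10, 4.55 and 4.69 in the same order, in all 4 cells below the level, which 25 of the 29 E11 cells reached. This was a difference of -5.30, the widest for a member called by the mean rule in any of the comparisons with E11 cells. Fzd8 was 11.98, 11.39, 10.47 and 12.18, and Fzd2 (1418534_at) 11.23, 10.49, 11.84 and 11.42, both present in 4 of 4. Dkk3, present in no E11 cell, was 9.21, 7.60, 10.12 and 11.24 and was present in 2. Stage, plasmids, choice as APs and array scaling all differ from those of the E11 cells and cannot be told apart here.

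By the mean rule 5 member probe sets were higher in NICD/p18 APs than in E11 cells (Fzd2, Fzd8, Sfrp1 and Wnt7b), or 13.2%, against 4.95% of all, and 1 was lower (Fzd1), against 3.91%. Without M5K and M6C, the cells with neuron markers, Wnt7b, Fzd2, Fzd8 and Sfrp1 were still higher and Fzd1 still lower. The differences for Wnt7b, Fzd8 and Fzd1 were then 1.86, 4.32 and -5.46. With only M5A and M6H left, 10 member probe sets were called higher. The share of all probe sets called with so few cells is not given, so this count is not set against the 4.95%. The phe signal was higher in this group than in the others. Its own phe level was taken as the median of the linear signals (11.69 on the log2 scale, beside 11.62 for the median of log2 signals). Against that level Wnt7b was present in 1 of 4 cells, Fzd8 in 2, Fzd2 in 1, Sfrp1 in 3 and Dkk3 in 0. The part of this in the higher signals was not tested.

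**Figure D4:**
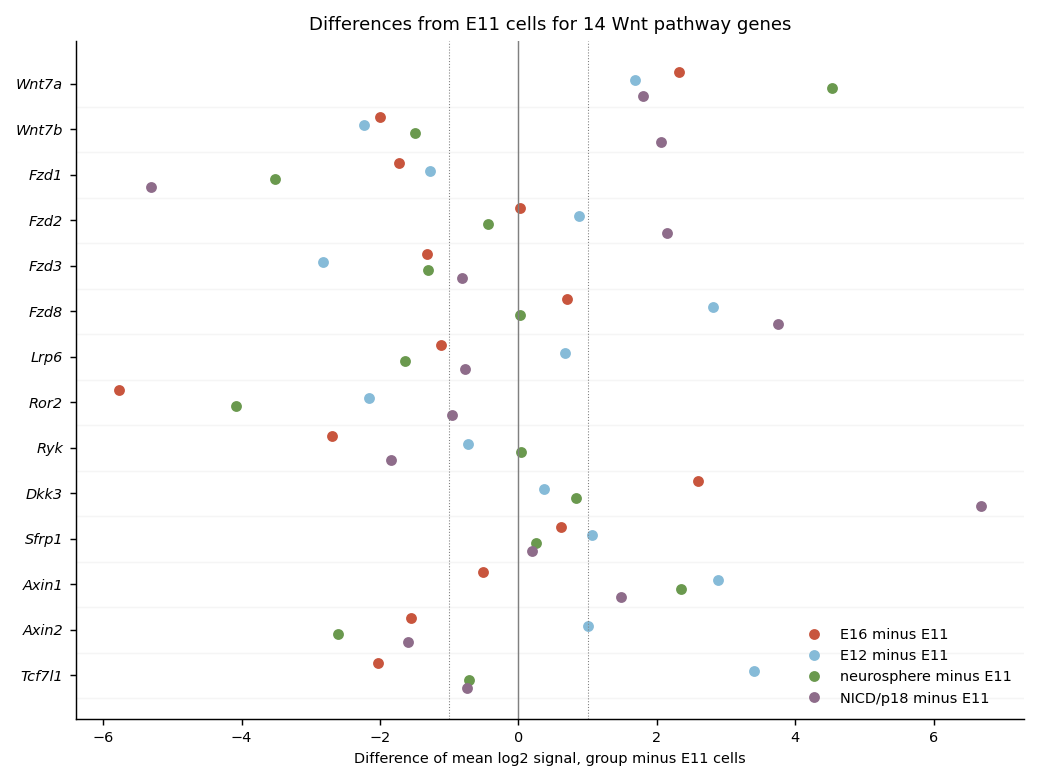
Difference of mean log2 signal from the 29 E11 cells (x axis) for 14 members, 1 probe set each, in E16 cells (red, n = 28), E12 APs (light blue, n = 3), neurosphere APs (green, n = 3) and NICD/p18 APs (purple, n = 4), with dotted lines at differences of -1 and 1. All 4 comparisons share the E11 cells. Fzd1, Fzd3 and Ror2 lay below 0 in all 4, and Wnt7b lay below 0 in all but the NICD/p18 APs.

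Other genes of the pathway, or tied to it, were taken from a list of 64 (62 on the array, 45 detected), each by its probe set of highest mean. The shares of all probe sets given beside them count every probe set, weaker ones included, so they are not a like measure. Ctnnb1, which encodes beta-catenin itself, was present in every E11 and E16 cell, at means of 13.36 ± 0.31 and 13.61 ± 0.16. By the share rule 1 listed gene was higher at E16, Celsr1, a planar polarity cadherin (12 of 29 and 24 of 28 cells), against 3.16% of all probe sets. The 7 lower, against 2.99% of all, were Wls, the carrier that Wnt proteins need for secretion (8 and 0 cells), the co-repressor Tle4 (23 and 11), the cell cycle gene Ccnd1 (23 and 11), Mycn (23 and 14), the Axin-modifying enzyme Tnks2 (23 and 10), the kinase Nlk (16 and 7) and the cortical patterning gene Emx2 (25 and 5). By the mean rule Celsr1 was higher, against 1.17% of all, and Ccnd1, Mycn, Tnks2 and Emx2 were lower, against 2.01%. The median difference over the 45 was -0.08.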

How the data were processed

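The authors amplified cDNA of single cells, hybridized it to Affymetrix arrays of the whole mouse genome and deposited MAS5 signal intensity values on a linear scale, 1 column per cell, not yet quantile normalized. The 45101 probe sets of 68 arrays were quantile normalized here, as the study's methods name that step, and taken as log2. Values of 67 arrays were used and no 2 columns were identical. Genes were named from the annotation of the platform: 34958 probe sets had 1 symbol, 932 several and 9211 none listed. Probe sets present in at least 1 of the 67 cells were compared (20256, spike-ins left out). Because the labels name no embryo or culture, no test was made, and means, SDs and exact (Clopper-Pearson) 95% intervals are descriptions. For arrays, the number of cells limits the precision. Full values were given for member probe sets present in at least 25% of the cells of a large group, in at least 2 cells of a small group, or called at E16. A gene with several probe sets was given by the one of highest mean among those present in at least 1 cell. The members' rule uses symbols only, but it, the marker lists and the pathway list were chosen with earlier results of these data known. Other scalings, levels, a floor, a pseudocount of 100 and left-out cells were tried. The procedure was checked on simulated data. These had normal spread, with shifts only in probe sets of mean at or above the level, so sparse genes were not covered. Python 3.11.15, numpy 2.4.6, pandas 2.3.3 and scipy 1.17.1 were used.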

Additional observations from a re-analysis of the deposited data

Results flagged for a closer look

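Among the 4 NICD/p18 APs, 3 of 20 member probe sets had 1 cell far from the others by Dixon's criterion, which chance alone meets in about 1 of 20 groups. Axin1 was 1.49 in M6C, against 10.24 in the nearest cell. Fzd3 was 9.20 in M5A, against 11.80. Sfrp1 (1428136_at) was 11.43 in M6C, against 12.15, and stayed above the level in all 4 cells.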

How the results depend on the processing

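No paired analysis was possible because the groups share no replicate number that the labels give to a shared source, and no result comes from a test. The 38 probe sets and 22 genes found present stayed within 1.5 times under every alternative (35 to 50 and 21 to 29). Of 192 values of the 8 called member probe sets under 12 alternatives, 189 kept their sign. The exceptions were the share of cells of Sfrp1 1438620_x_at, at -2.71 percentage points as deposited, -9.73 scaled to lys and 0 at a level of 1685. Part of the 192 values could not change by construction. Shares of cells did not depend on the floor or the pseudocount, and mean differences did not depend on the level. Neither depended on the filter on low values. The count of 189 therefore overstates how far the signs were put to a trial. The share rule's 2 higher calls became 0 as deposited, with equal trimmed means, scaled to lys, at a level of 1685 and without arrays of low signal, 1 at a level of 421, with only E11 and E16 arrays normalized together and with E11-31i kept, and 5 without the cells with IP or neuron markers. Its 5 lower calls became 1 at a level of 1685. The mean rule's 2 lower calls became 1 with the floor of 211 and 4 at a level of 421, and its 0 higher calls became 1 without the cells with IP or neuron markers. Leaving out 1 cell at a time, the E12 APs gave 6 to 12 higher calls (12 without the cell with Fzd1 at 5.93) and 1 to 2 lower, the neurosphere APs 1 to 6 (6 without W6D, 2 without W2O) and 1 to 2, and the NICD/p18 APs 4 to 8 (8 without M6C) and 1 to 2. The neurosphere APs had 3 higher calls as deposited. The NICD/p18 APs had 9 higher calls as deposited and 10 without the cells with neuron markers, and 2 lower calls with the other scalings and without those cells. The cause was not tested. These counts of calls stand without the share of all probe sets called under the same alternative, and are not set against it. For the 3 other scalings, differences were taken relative to the median of all probe sets, which lay at -0.25 as deposited and -0.45 scaled to lys for E16 minus E11. Signals below the 20-copy level limit all values given for sparse genes.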
